A study of Mus musculus with 16 samples.

Results

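The Hox cluster genes are the 39 genes whose symbol is Hox, a cluster letter from a to d and a number, of 48709 genes in the RNA tables. They were taken by symbol alone, and the 4 clusters held 11, 10, 9 and 9 of them in the order Hoxa, Hoxb, Hoxc and Hoxd. The members encode homeodomain transcription factors that give cells their position along the head-to-tail axis. Genes with the same number in different clusters are paralogs. Within a cluster the low numbers lie at the end that is switched on first and furthest towards the head, and the high numbers at the end that acts in the trunk, limb and tail. In much of the embryonic head the clusters are silent and are held in a state marked by Polycomb proteins, and active Hox genes carry H3K27ac, acetylation of lysine 27 of histone H3, a mark of active promoters and enhancers. The cochlea grows from the otic placode, which forms beside the hindbrain.

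Flow cytometry was used to sort mouse progenitors that form the organ of Corti, the strip of hair cells and supporting cells in the cochlea. Embryos were taken at 2 embryonic ages, E12.0 and E13.5. At E12.0 the sort took cells positive for Sox2-GFP, and at E13.5 it took those positive for p27-GFP, so age and reporter gene cannot be told apart in any comparison of the stages. Each stage had 2 RNA-seq, 3 ATAC-seq and 2 H3K27ac CUT&RUN libraries, and E12.0 had 2 further CUT&RUN libraries made with an antibody to all Tead factors, which makes 16 libraries. Strain, drug treatment, and how many embryos a library pools are not given in the sources used here, and no group carried a labelled mutation. ATAC-seq marks chromatin that a transposase can reach, and CUT&RUN releases chromatin bound by an antibody. The comparison asks which members were transcribed in these progenitors and what chromatin state silent or expressed members had.

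RNA totals were 9412326 and 9810603 expected counts in the E12.0 libraries, then 17057751 and 19570946 in the E13.5 ones. The 10 prosensory markers were all read, and their summed level in CPM (counts scaled to the library total) was 1676 and 1749 in the E12.0 libraries against 5515 and 5660 in the E13.5 ones, and Sox2 itself stood at 28.5, 34.2, 187 and 203 CPM in the same order. Of markers of other cells, the periotic mesenchyme list summed to 985, 989, 452 and 563 CPM with 1 of 11 genes (Tbx15) at 0, and nearly all of it was Lum, while Pou3f4 stayed at or under 0.23 CPM. The glia and neural crest list summed to 1384, 1821, 795 and 822 CPM with 0 of 6 genes at 0, mostly Erbb3, while Foxd3 stayed at or under 0.56 CPM. The list for hindbrain and spiral neurons summed to 25.6 to 39.4 CPM with 3 of 10 genes at 0, Lhx2 and Neurod4 among them. Melanocyte markers summed to 0.212, 0.102, 3.40 and 32.8 CPM with 0 of 5 at 0, and the lists for blood and immune cells, endothelium, skeletal muscle and keratinocytes each stayed at or under 3.40 CPM, with 5 of 10, 0 of 5, 2 of 5 and 2 of 3 genes at 0.

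RefSeq promoter sequences were at hand for 22 of the 39 members, each running from 250 bases before to 50 bases after the start on GRCm38.p6. Shown first are the 250 bases before the start of the 3 promoters whose weakest ATAC interval within 1 kb of the start was strongest. These 3 were chosen from the chromatin values described below. For Hoxd1 and Hoxd10 the intervals overlapped the printed bases in every library. For Hoxa10 those of all E12.0 libraries and of E13.5 replicate 3 ended inside the gene, short of the printed bases. Capitals mark CpG dinucleotides, each written 5′ to 3′ on the gene's strand.
Hoxa10 (chr6:52240855-52241104, minus strand): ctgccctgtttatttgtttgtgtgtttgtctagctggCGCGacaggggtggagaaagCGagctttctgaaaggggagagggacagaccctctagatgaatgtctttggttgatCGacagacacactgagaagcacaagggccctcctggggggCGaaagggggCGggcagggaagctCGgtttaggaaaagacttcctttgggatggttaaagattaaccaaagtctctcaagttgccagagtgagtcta
Hoxd1 (chr2:74762730-74762979, plus strand): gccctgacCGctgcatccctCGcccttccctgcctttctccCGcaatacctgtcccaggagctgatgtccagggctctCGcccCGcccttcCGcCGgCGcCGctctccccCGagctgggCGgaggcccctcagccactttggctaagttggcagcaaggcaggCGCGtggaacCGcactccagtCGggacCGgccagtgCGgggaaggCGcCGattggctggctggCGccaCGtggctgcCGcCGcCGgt
Hoxd10 (chr2:74691641-74691890, plus strand): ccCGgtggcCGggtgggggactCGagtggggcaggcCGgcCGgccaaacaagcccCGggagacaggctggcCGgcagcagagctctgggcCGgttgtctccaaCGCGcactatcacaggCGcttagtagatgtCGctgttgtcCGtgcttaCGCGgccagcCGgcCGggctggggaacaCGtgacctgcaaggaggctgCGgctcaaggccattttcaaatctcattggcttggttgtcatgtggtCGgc
Those of Hoxd1 and Hoxd10 hold 24 and 20 CpGs, and that of Hoxa10 holds 7. The next 3 are the first by symbol of the 5 members with no ATAC interval within 1 kb of the start in any of the 6 libraries.
Hoxa6 (chr6:52208673-52208922, minus strand): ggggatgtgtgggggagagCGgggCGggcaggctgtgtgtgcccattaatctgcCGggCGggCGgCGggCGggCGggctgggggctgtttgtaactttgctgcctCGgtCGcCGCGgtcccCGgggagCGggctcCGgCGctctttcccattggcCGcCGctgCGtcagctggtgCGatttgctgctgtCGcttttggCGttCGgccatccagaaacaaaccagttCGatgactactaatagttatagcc
Hoxa9 (chr6:52227371-52227620, minus strand): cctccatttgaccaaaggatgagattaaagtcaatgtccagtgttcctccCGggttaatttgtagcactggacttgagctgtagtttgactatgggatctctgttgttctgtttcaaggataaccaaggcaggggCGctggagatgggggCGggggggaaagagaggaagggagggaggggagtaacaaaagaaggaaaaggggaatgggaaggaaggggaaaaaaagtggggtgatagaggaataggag
Hoxb8 (chr11:96281655-96281904, plus strand): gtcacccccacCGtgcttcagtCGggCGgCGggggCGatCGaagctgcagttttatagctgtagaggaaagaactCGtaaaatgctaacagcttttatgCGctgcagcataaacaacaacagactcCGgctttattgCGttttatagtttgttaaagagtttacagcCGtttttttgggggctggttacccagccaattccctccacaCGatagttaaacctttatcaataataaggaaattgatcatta
Hoxa9 holds 3 CpGs and Hoxb8 holds 12, but Hoxa6 holds 24, as many as Hoxd1.

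No Hox gene was expressed at either stage. A gene was called expressed when it reached 1 TPM (a level divided by gene length and library total) in every library of a stage, silent when it was under 0.1 TPM in every library, and low otherwise. By these limits 37 members were silent and 2 low at E12.0, and 38 were silent and 1 low at E13.5. Of the 20722 other protein-coding genes 52.1% were expressed and 32.7% silent at E12.0, with 56.3% and 30.3% at the later stage. Of 134 genes of other homeobox families 43 were expressed at E12.0 and 41 at E13.5.

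All 39 members together gave 4 reads and 1 read in the E12.0 libraries and 14.6 and 4 reads in the E13.5 libraries. As shares of the libraries these are 0.425 CPM (95% exact Clopper-Pearson interval 0.116 to 1.09) and 0.102 CPM (0.00258 to 0.568) at E12.0. At E13.5 they are 0.858 CPM (0.492 to 1.45) and 0.204 CPM (0.0557 to 0.523), and these intervals cover counting error only. In 31 members no read was counted in any library, 79.5% of the list, against 23.9% of other protein-coding genes and 31.3% of the other homeobox genes. Absence of RNA cannot be read below what 3 counts would give in a library, which for these 31 members is 0.188 to 0.666 TPM in E12.0 replicate 1, 0.204 to 0.716 in E12.0 replicate 2, 0.134 to 0.494 in E13.5 replicate 1 and 0.116 to 0.430 in E13.5 replicate 2. That range lies under the 1 TPM limit for expression in each library, but above the 0.1 TPM limit for silence, so a silent call here means that the library counted about no read. In bulk libraries such as these, fewer cells of a type and less RNA per cell cannot be told apart.

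**Figure D1:**
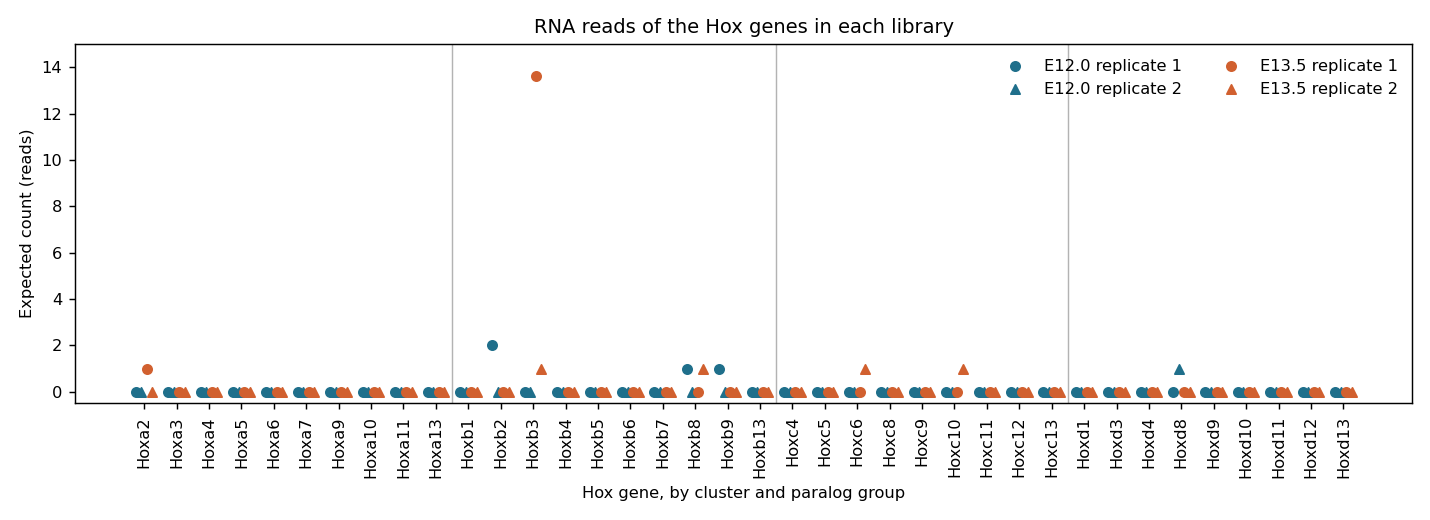
Expected count (reads) of the Hox genes reported by name in the 4 RNA libraries, ordered by cluster and paralog number, with circles for replicate 1 and triangles for replicate 2. Hoxb3 in E13.5 replicate 1 is the single value above 2 reads.

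The 8 members with any read were Hoxa2, Hoxb2, Hoxb3, Hoxb8, Hoxb9, Hoxc6, Hoxc10 and Hoxd8, 4 of them in the Hoxb cluster. Hoxb3, a factor of the hindbrain segments, had 0 and 0 reads in the E12.0 libraries, then 13.6 and 1, or 0.481 and 0.0306 TPM at E13.5. Its level rests on 1 library, since E13.5 replicate 2 was close to the E12.0 libraries. In that library the summed mesenchyme and glia lists were at their lowest of the 4 (452 and 795 CPM), sums that are mostly Lum and Erbb3. Other genes of these lists were at their highest there, namely Col3a1 (4.98 CPM, against 0.531, 0.815 and 1.07), Col1a2 (4.98 CPM, against 0.319, 4.18 and 0.715), Pou3f4 (0.234 CPM, against 0, 0 and 0.0511) and Cdh19 (2.29 CPM, against 0.106, 0 and 1.53). The neuron list at 30.9 CPM lay within the range of the others. The part of these cells in the Hoxb3 reads was not tested. Hoxb3os, a non-coding RNA whose gene overlaps Hoxb3, had 3.36 reads in the same library and 0 in the other 3. The sources used here do not say whether reads were counted by strand, so reads of this pair may be split between them.

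Hoxb2, which also acts in the hindbrain, had 2 reads in E12.0 replicate 1 (0.205 TPM) and 0 in the other 3 libraries. Hoxb8, a gene of trunk levels, had 1 read in E12.0 replicate 1 (0.293 TPM) and 1 in E13.5 replicate 2 (0.0376 TPM). Both were called low at E12.0. The TPM of Hoxb8 is that of 1 read each time, and the effective length the table gives the gene differs between the libraries. The other 5, namely Hoxa2, Hoxb9, Hoxc6, Hoxc10 and Hoxd8, had 1 read each in 1 library. Non-coding genes of the clusters were as quiet: 14 of the 16 listed ones in the table had no read, and besides Hoxb3os only Hoxd3os1 had 1 read. The miRNA genes among them cannot be judged, since poly(A) libraries do not measure mature miRNAs.

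No member could be tested as a change between the stages in the fit across all genes. In that fit (edgeR's quasi-likelihood test with Benjamini-Hochberg adjustment, 2 against 2 libraries) 45.9% of the 15982 genes tested differed at an adjusted p under 0.05, and 0 of 39 Hox genes passed the filter on low counts. With that filter replaced by at least 1 read, 8 members were tested and 0 had an unadjusted p under 0.05, the lowest being Hoxb3 with 0.0943 (adjusted 0.223 by edgeR). DESeq2 and limma, run on the genes that passed the filter, tested 0 members. Without either E12.0 library 1 member was tested and 0 were called. Reads this few do not show whether the members differed.

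Chromatin of the silent clusters was accessible at many places. Windows ran from the first to the last Hox gene with 20 kb added on each side: Hoxa at chr6:52135367-52280880, Hoxb at chr11:96174316-96388254, Hoxc at chr15:102901131-103056856 and Hoxd at chr2:74648225-74785142, all on GRCm38. ATAC intervals covered 3.34%, 4.61% and 2.90% of the 4 windows in the E12.0 libraries (mean 3.62% ± 0.89, SD, n = 3). At E13.5 they covered 6.83%, 6.59% and 4.75% (mean 6.06% ± 1.14, SD, n = 3). All 3 E13.5 libraries stood above all 3 E12.0 libraries, the lead being small between E13.5 replicate 3 and E12.0 replicate 2. An exact 2-sided permutation test gave p = 0.1, the smallest that 3 against 3 libraries allow, and 0.2 after adjustment over 10 such tests.

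Genome-wide coverage was higher as well, going from 1.24%, 1.51% and 1.06% to 2.43%, 2.34% and 2.54%. Relative to the genome the windows were covered 2.68, 3.05 and 2.73 times as densely at E12.0 and 2.81, 2.82 and 1.87 times at E13.5. These ratios overlapped between the stages (2.82 ± 0.20 and 2.50 ± 0.55, SD, n = 3, exact permutation p = 0.6, adjusted 0.667). E13.5 replicate 3 gave the lowest ratio although its list was the longest in the series, and over Hoxc it was 0.906, below the genome.

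**Figure D2:**
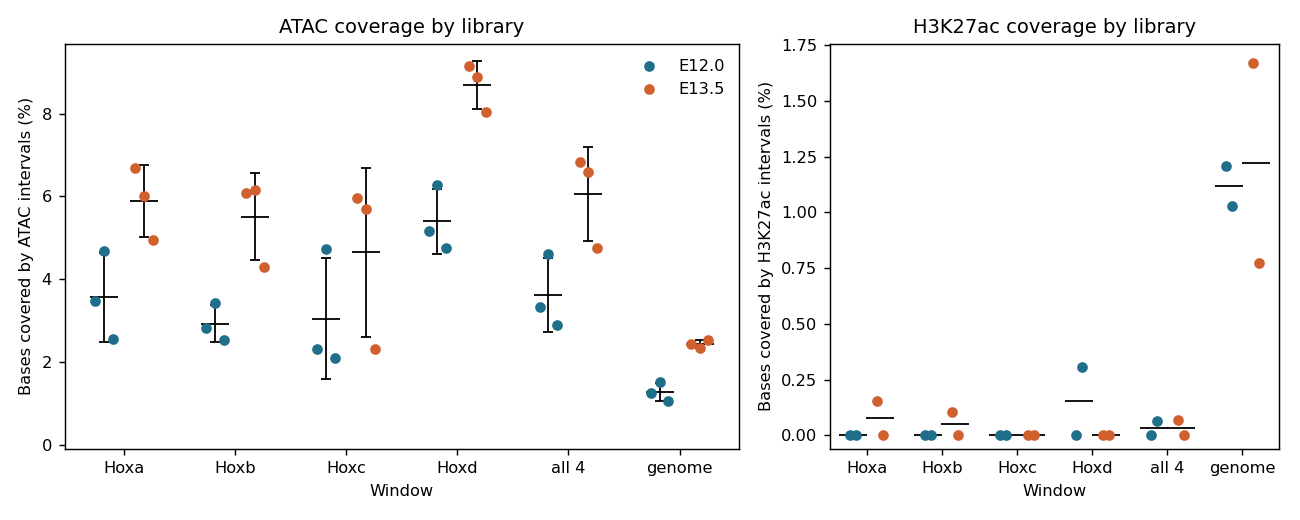
Percent of bases covered by deposited intervals in each Hox window, in the 4 windows together and in the genome, 1 point per library, with a black dash at the mean and, for ATAC (n = 3), bars of 1 SD. Hoxd has the highest ATAC coverage at both stages, and H3K27ac coverage of every window is far below that of the genome.

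Hoxd was the most covered window in each of the 6 libraries, at 5.18%, 6.27% and 4.75% in the E12.0 libraries, then 9.15%, 8.89% and 8.03%. Its ratio to the genome was 4.26 ± 0.18 at E12.0 and 3.57 ± 0.36 at E13.5 (SD, n = 3, exact permutation p = 0.1, adjusted 0.2), with all 3 E13.5 ratios below all 3 E12.0 ratios. Hoxa, Hoxb and Hoxc had mean coverage of 3.57%, 2.93% and 3.05% at the earlier stage, then 5.88%, 5.51% and 4.65%. Hoxc was the least even, with an SD of 1.46 percentage points at E12.0 and 2.04 at E13.5 against a difference of 1.60 between the stage means (p = 0.3, exact permutation test, adjusted 0.5).

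Merging the 6 ATAC lists gave 211 regions in the windows, and 33 of them (15.6%) held an interval of every library, against 10.1% of all regions in the genome. Hoxd supplied 15 of the 33 from 39 regions, whereas Hoxb supplied 8 of 68, Hoxa 6 of 51 and Hoxc 4 of 53. The 33 regions had a median length of 717 bases. Hox gene spans overlapped 20 of them and 13 lay outside every span. Regions held by all 3 E13.5 libraries and by no E12.0 library numbered 4 (1.90%, against 6.60% in the genome), and the reverse pattern was seen once (0.474%, against 0.0465%). Most regions followed neither pattern, being held by some libraries of one or both stages.

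The shared site with the highest single fold lay within the 40.8 kb RefSeq span of Hoxb3 at chr11:96311612-96312254, with a fold over local background, as deposited by the authors, of 4.73, 11.1 and 5.19 at E12.0, then 16.2, 11.8 and 10.7. Each list was called by itself, so folds describe a list and are not compared between stages. A site between Hoxb13 and Hoxb9 at chr11:96234914-96235377 had folds from 6.18 to 13.3 and lay 36.0 kb from the nearest Hox gene, Hoxb9. One over the start of Hoxd1, the member of that cluster active furthest towards the head, at chr2:74762418-74763787 had folds from 5.96 to 11.1. Another lay 2.67 kb from Hoxc8 at chr15:102987197-102987866 with folds from 3.68 to 10.95. In Hoxa a site at chr6:52240262-52240957 had folds from 6.13 to 10.1. It lay at the start of Hoxa10, but only in E13.5 replicates 1 and 2 did its interval cover that start. None of these 5 sites held an H3K27ac interval. A weaker site held by all 6 libraries did hold one, in E12.0 replicate 2 (fold 3.50). It lay 6057 bases outside Hoxd13 at chr2:74661615-74662168, with ATAC folds from 2.71 to 5.72. Whether the sites within gene spans are exonic or intronic was not determined.

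**Figure D3:**
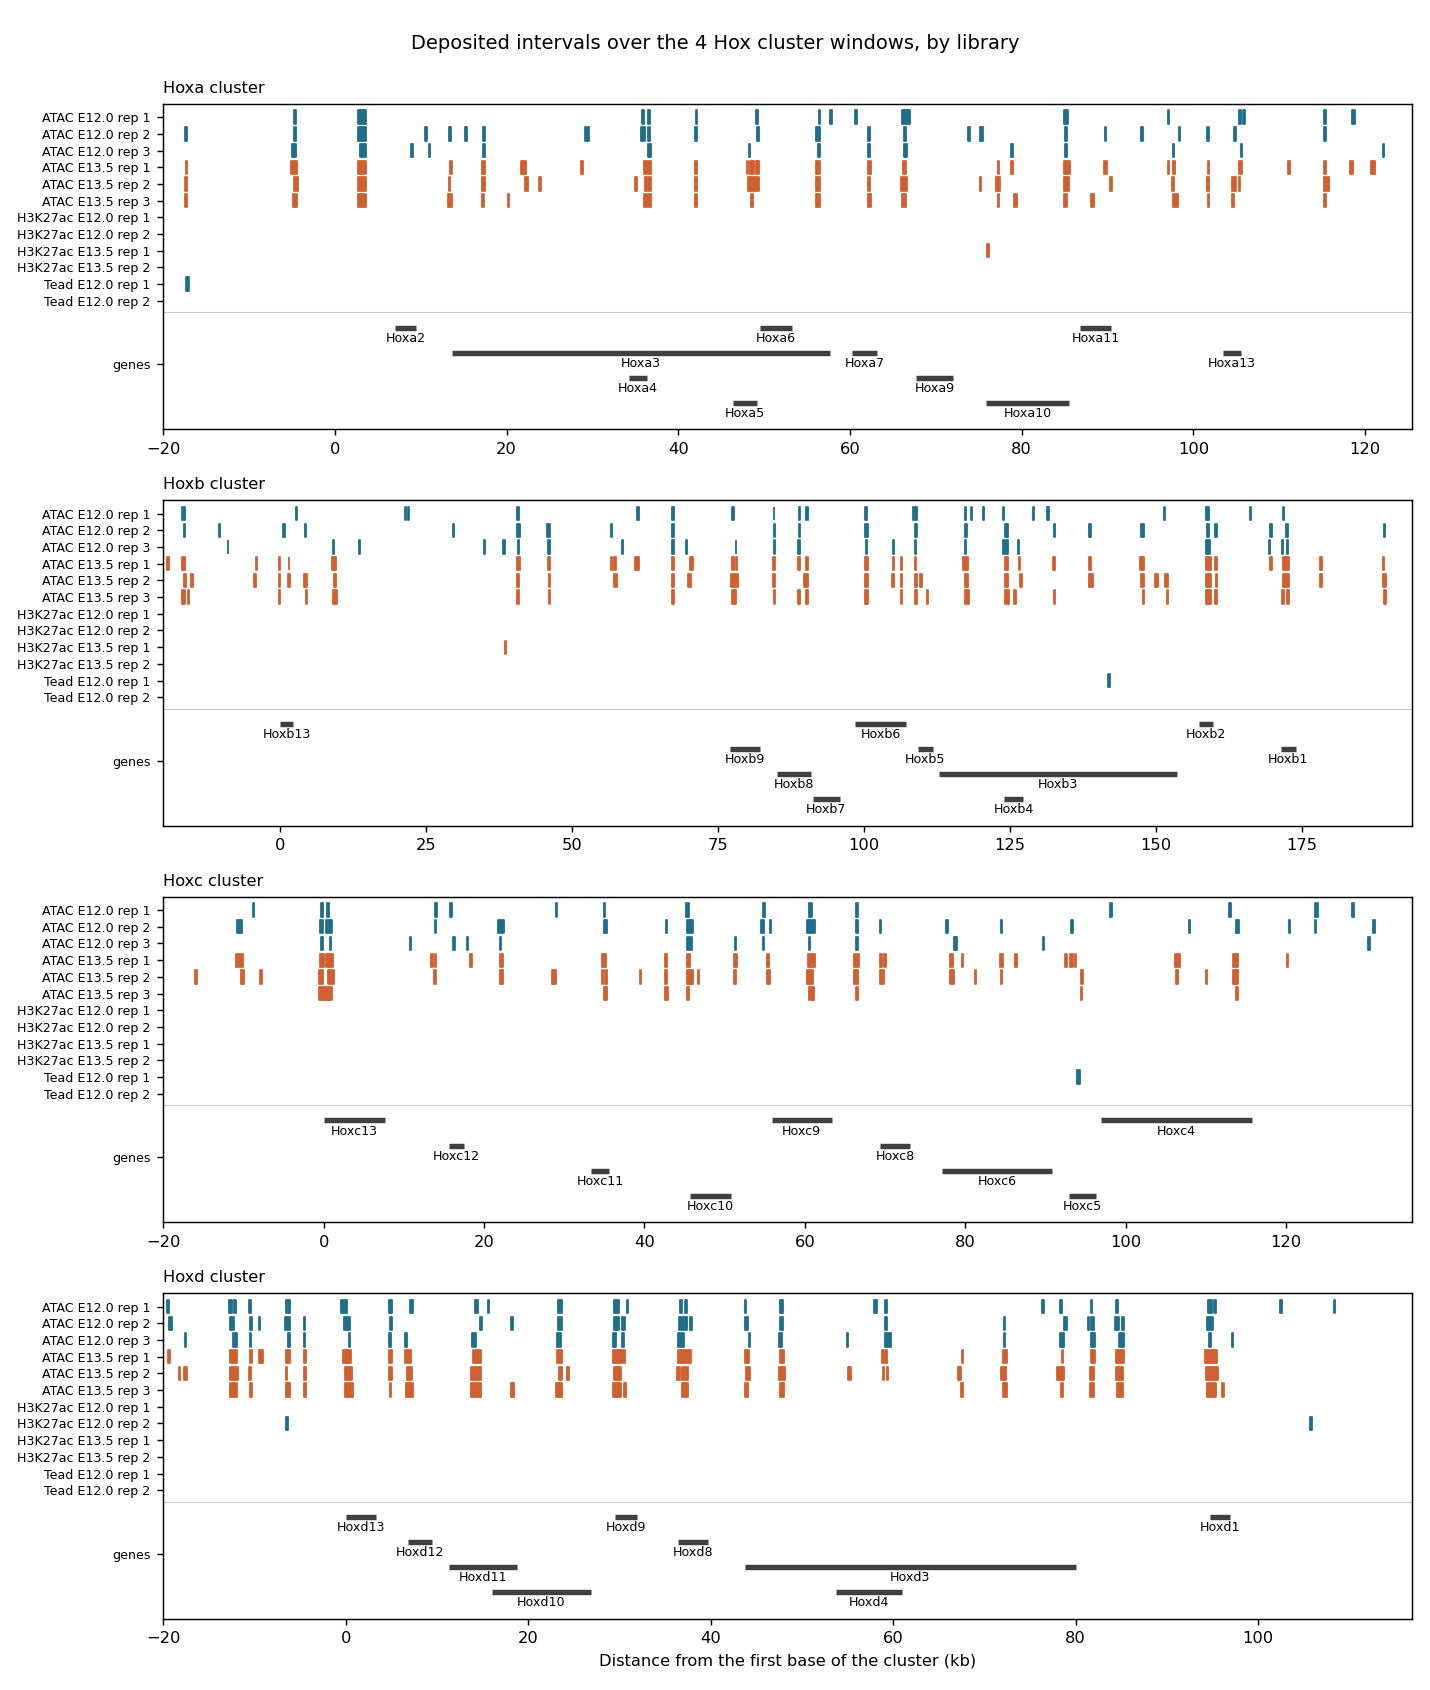
Deposited intervals of each library (blue E12.0, orange E13.5) along the 4 windows, with spans of the Hox genes reported by name below and distance in kb from the first base of each cluster. ATAC intervals recur at the same positions across libraries, while the H3K27ac rows hold 4 intervals and the Tead rows 3 in all.

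H3K27ac was nearly absent from the clusters. The 4 libraries held 0 and 2 intervals in the windows at the earlier stage, then 2 and 0. They covered 0% and 0.0646% of the windows at E12.0, then 0.0689% and 0%, where the genome stood at 1.21%, 1.03%, 1.67% and 0.771% in the same order. Hoxd held the pair of E12.0 replicate 2, and Hoxa and Hoxb held 1 each of E13.5 replicate 1. Their folds were 2.49 to 3.50, each was 200 to 225 bases long, and no interval was seen in a second library (0 of 4 regions, against 1.97% of regions in the genome held by all 4 libraries). Likewise 0 of the 4 were held by both E13.5 libraries alone or by both E12.0 libraries alone, patterns of 1.40% and 0.878% of regions in the genome. E12.0 replicate 1 was made with the KAPA HTP kit and the other H3K27ac libraries with the Accel 2S Plus kit. Both kits gave a library with 0 intervals in the windows.

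Tead factors, the DNA-binding partners of the co-activator Yap, showed 3 intervals in the windows in replicate 1 and 0 in replicate 2. The 3 intervals in the windows lay 16.9 kb outside the Hoxa genes, inside Hoxb3 and inside Hoxc5, with folds of 2.65, 2.27 and 2.51. None was shared by both libraries, against 2.11% of Tead regions in the genome, and replicate 1 used the KAPA HTP kit and replicate 2 the Accel 2S Plus kit.

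Accessibility at the gene starts differed among the members. A start counted as open when all 3 ATAC libraries of a stage had an interval within 1 kb of it. RefSeq can list a start that is not the main promoter of a gene, so an empty window does not show a closed main promoter. For the 22 members with a listed start, 11 were open at E12.0 and 14 at E13.5. Among all other protein-coding genes with a listed start 62.8% were open at E12.0 and 68.1% at E13.5. Split by RNA, 93.2% and 94.6% of expressed genes but 14.5% and 19.8% of silent genes had an open start. The Hox genes, silent or low, thus had open starts more often than silent genes as a whole and less often than expressed genes. These shares are descriptions, since genes of a cluster are neighbours and not replicates, and the difference was not tested. For the other 17 members, where no start was listed, the gene span with 1 kb on each side was used, and 9 of them were open at E12.0 and 14 at the later stage. A span is a wider target than a start, and these counts are not set against genome shares.

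CpG content and gene family went with openness in the genome. Of silent genes with a CpG-rich promoter (GC of at least 0.5 and observed to expected CpG of at least 0.6), 71.8% of 457 were open at E12.0 and 82.9% of 410 at E13.5. Of silent genes of other homeobox families, 27 of 46 (58.7%) were open at E12.0 and 36 of 47 (76.6%) at E13.5. CpG-rich Hox promoters were open in 6 of 9 cases (66.7%) at both stages. Of silent genes whose promoter was not CpG-rich, 9.12% of 4826 were open at E12.0 and 14.1% of 4486 at E13.5, and of such Hox promoters 5 of 13 (38.5%) and 8 of 13 (61.5%). The CpG-rich Hox share rests on 9 promoters. It was near that of silent CpG-rich genes at E12.0 and lower at E13.5, and the difference was not tested. The share of the other Hox promoters lay above that of silent genes that are not CpG-rich. These splits were chosen after the values had been seen.

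**Figure D4:**
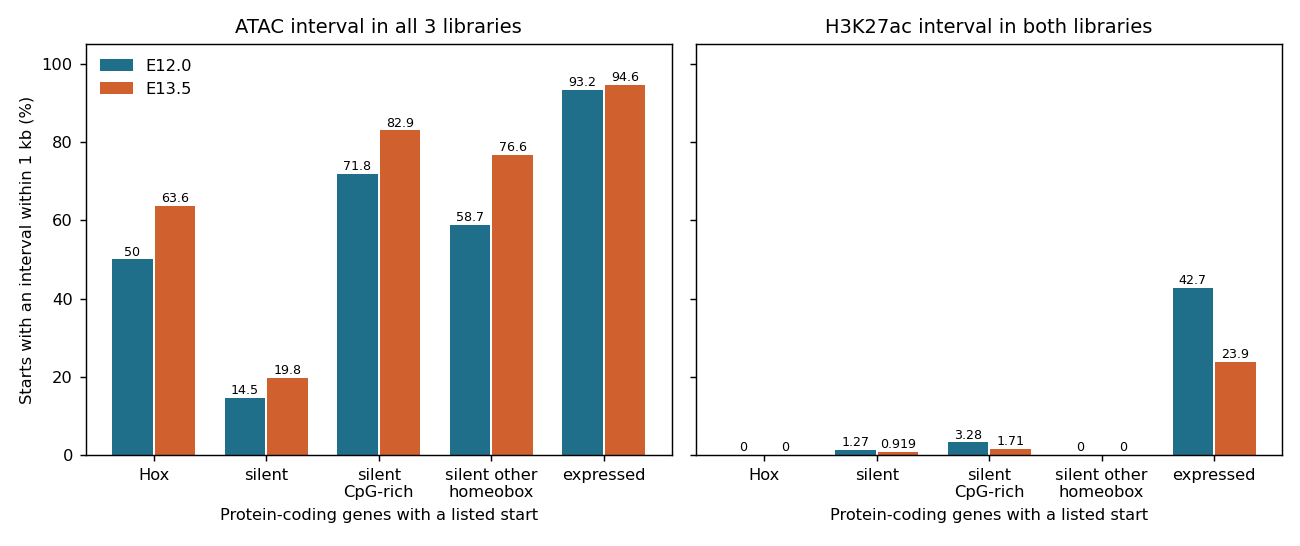
Percent of gene starts with an ATAC interval in all 3 libraries (left) or an H3K27ac interval in both libraries (right) within 1 kb, for the 22 Hox starts and for other protein-coding genes by RNA level, CpG content and family. Hox starts lie between silent and expressed genes for ATAC and at 0 for H3K27ac.

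Acetylation was not found at the Hox starts. Both H3K27ac libraries marked 42.7% of expressed starts at E12.0 and 23.9% at E13.5, against 1.27% and 0.919% of silent starts and 24.5% and 14.6% of all. Within the window used for each member, the listed start or else the span, 0 of 39 were marked in any single library. The interval inside Hoxa10 in E13.5 replicate 1 (fold 2.49) lay outside the window at that gene's start. Among expressed genes 75.1% and 82.7% were marked in at least 1 library, and among silent genes 7.29% and 7.82%. Expressed genes of other homeobox families were marked in both libraries in 3 of 30 cases at E12.0 and 3 of 31 at E13.5, a lower share than expressed genes as a whole, and in at least 1 library in 17 and 21 cases. Silent genes of these families had 0 of 46 marked in any library at E12.0 and 2 of 47 at E13.5.

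Individual members differed more than the counts show. Over both stages 20 of 39 members were open in all 6 libraries, 14 in some and 5 in none, the last being Hoxa6, Hoxa9, Hoxb8, Hoxd4 and Hoxd11. Hoxa10 had folds of 7.05, 10.1 and 6.13 at E12.0, then 9.10, 8.17 and 7.36, with no library apart from the rest. Hoxd1 had 5.96, 11.1 and 7.29, then 9.69, 7.67 and 8.98. Hoxd10 had 5.91, 8.18 and 5.05, then 7.21, 5.38 and 6.32. Its cluster neighbour Hoxd11 had no interval at the listed start, but a site held by all 6 libraries lay inside the gene, 2.39 kb from that start, with folds from 2.75 to 4.24. Hoxb8 likewise had a site held by all 6 libraries, 284 bases outside its span and 2.79 kb from its listed start, with folds from 3.46 to 11.6. The absence of an interval at a listed start therefore does not show closed chromatin around the gene.

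Some members were open at E13.5 in all 3 libraries but not at E12.0: Hoxa7 (3.41 and 3.60 in replicates 2 and 3 at E12.0, then 5.60, 3.32 and 2.84) and Hoxd12 (2.55 and 2.74 in replicates 1 and 3, then 5.73, 2.40 and 4.21) among them. The E13.5 lists hold more intervals than the E12.0 lists throughout the genome, and the part of list length in these additions was not tested. Hoxa2 and Hoxa3, both genes of the hindbrain, had an interval at the listed start in 1 library each (3.08 in E12.0 replicate 3 and 2.14 in E12.0 replicate 1). For Hoxa3 a site held by all 6 libraries lay inside the gene at chr6:52211405-52211896, 1.17 kb from the listed start, with folds from 3.12 to 10.25. Hoxb1, another hindbrain gene, was open in all 6 libraries with folds from 2.61 to 9.30. Of the Hoxc genes, Hoxc9, Hoxc10 and Hoxc13 held intervals in all 6 libraries, with folds from 2.18 to 4.68, from 3.42 to 7.78 and from 2.93 to 8.43. Hoxc8 and Hoxc12 held one in 3 libraries each. Within 1 kb of the Hoxb7 span, E12.0 replicate 1 (2.96) and all 3 E13.5 libraries (7.11, 4.24 and 5.69) had an interval. These intervals lay outside that span and inside the span of Hoxb8.

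Position within the clusters gave no single order when each member kept its own window, the listed start or else the span. Of the members of paralog groups 1 to 4, 8 of 12 were open at E12.0 and 9 at E13.5. For groups 5 to 8 the counts were 4 and 7 of 11, and for groups 9 to 13 they were 8 and 12 of 16. By cluster the open members at E12.0 were 5 of 11 in Hoxa, 6 of 10 in Hoxb, 3 of 9 in Hoxc and 6 of 9 in Hoxd. At E13.5 they were 6, 9, 6 and 7. Starts and spans were used unevenly, since every Hoxd member had a listed start but in Hoxc only Hoxc4 did. With spans for every member, those not open at E12.0 were Hoxa2 and Hoxc4 in groups 1 to 4. In groups 5 to 8 they were Hoxa6, Hoxb7, Hoxc5, Hoxc6 and Hoxc8. In groups 9 to 13 they were Hoxa9, Hoxa11, Hoxb9, Hoxb13, Hoxc11, Hoxc12 and Hoxd12. For E13.5 they were Hoxa2 and Hoxd4, then Hoxc6 and Hoxc8, then Hoxa9 and Hoxc12.

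The 22 promoters of 300 bases held 4 to 45 CpGs, and 9 of them were CpG-rich. Their median was within 1 of that of other protein-coding promoters, 14 CpGs (47.5% CpG-rich), while the promoters of the 4414 genes silent at both stages had a median of 2 (6.77% CpG-rich). The Hox promoters were thus silent genes with the CpG content of promoters in general. Those open in all 6 libraries (11) had a median of 20 CpGs and the others (11) a median of 9. Several lay against that order. Hoxa6 with 26, Hoxa3 with 20 and Hoxa11 with 15 were not open in all 6 libraries. Hoxd8 with 6, Hoxb1 with 10 and Hoxa10 with 12 were.

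Expressed genes beside the clusters had open starts in every library, while acetylation there varied. Within 1 Mb of a cluster, 12 of the neighbours chosen had a listed start. The 9 expressed ones were open in all 6 ATAC libraries, with folds from 4.50 to 19.6, and each was marked by H3K27ac in at least 1 library, Cbx5 and Hibadh in all 4 but Mtx2, Smug1 and Snx10 in E13.5 replicate 1 alone. Among the silent ones were Evx1 and Evx2, homeobox genes at the ends of Hoxa and Hoxd. At the listed start each was open in 2 of 6 libraries and marked in 0 of 4. Evx2 nevertheless had sites held by all 6 ATAC libraries inside its span, at chr2:74655491-74656441 and chr2:74657619-74657971. Just beyond its 5′ end another such site, chr2:74661615-74662168, held an H3K27ac interval in E12.0 replicate 2 (fold 3.50). The third silent neighbour was Ttll6, 28.1 kb from Hoxb. It was open in 5 of 6, all 3 E13.5 libraries included (4.71, 6.05 and 5.28), and marked in 1 of 4 (3.39 in E13.5 replicate 1). Lnpk, 88.8 kb beyond Hoxd, rose from 17.9 and 21.0 to 118 and 123 TMM-scaled CPM (log2 fold change 2.63 ± 0.27, SE, adjusted p = 4.86e-05, edgeR). Calcoco1, 199 kb from Hoxc, rose from 22.3 and 31.2 to 156 and 156 (2.55 ± 0.27, SE, adjusted p = 7.22e-05, edgeR). Of 9 neighbours tested 3 rose and 3 fell, against 22.4% and 23.5% of all genes tested. On the log2(TPM + 1) scale 5 rose and 0 fell, against 6821 and 2101 of all 15982 genes.

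Genes of Hox partner proteins were transcribed. Meis, Pbx and Pknox proteins are homeodomain factors of the TALE class that bind DNA with Hox proteins and also act without them. All 9 listed genes were tested, of which 2 rose and 3 fell, near the 22.4% and 23.5% of all genes that rose and fell. Without E13.5 replicate 1, 1 rose. The list's median log2 change was -0.45 against 0.05 for all genes. On the log2(TPM + 1) scale 3 rose and 1 fell, against 6821 and 2101 of all 15982 genes. The list's median turned to 0.47 there, where the median of all genes moved to 0.76.

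Meis3 stood at 10.6 and 10.4 TMM-scaled CPM at E12.0, then at 62.5 and 63.2. Its rise (log2 fold change 2.58 ± 0.31, SE, adjusted p = 0.000127, edgeR) was larger than the spread between replicates and held under all 8 alternatives. Meis1 rose from 8.12 and 6.71 to 24.5 and 18.6 (1.54 ± 0.41, adjusted p = 0.0113, edgeR), a call lost without E13.5 replicate 1 (adjusted p = 0.0644). Pbx2 fell from 86.1 and 86.9 to 22.8 and 26.1 (-1.82 ± 0.27, SE, adjusted p = 0.000431, edgeR) and held under all 8 alternatives. Pknox1 fell from 94.6 and 116 to 32.8 and 28.6 (adjusted p = 0.000447, edgeR), but not on the log2(TPM + 1) scale (-0.70, adjusted p = 0.115, limma). Meis2 rested on 1 library, with 34.1 and 5.53 at E12.0, then 5.29 and 4.11: its fall (-2.07, adjusted p = 0.0352, edgeR) went to -0.25 (adjusted p = 0.806) without E12.0 replicate 1.

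**Figure D5:**
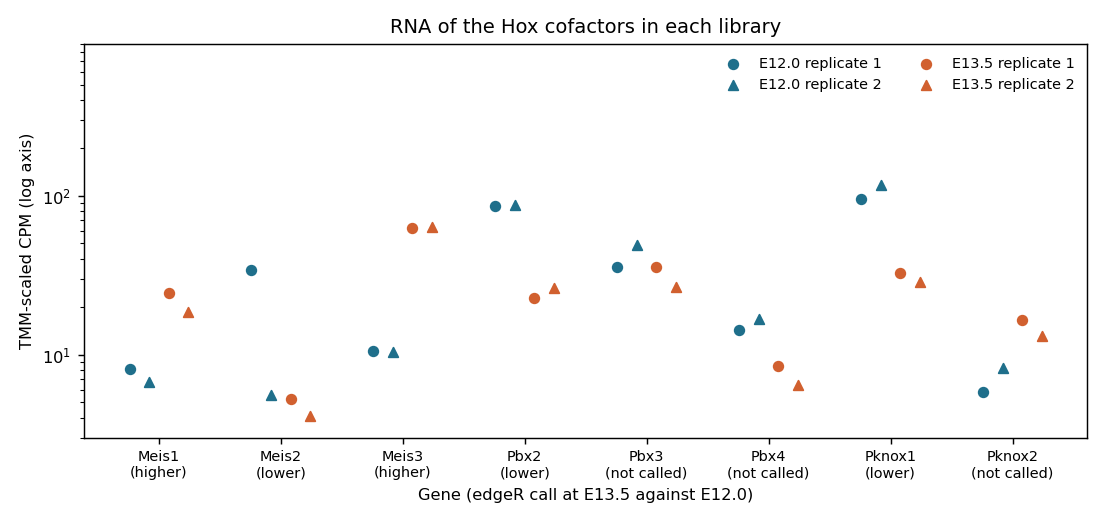
TMM-scaled CPM on a log axis of the Hox cofactor genes reported by name in each of the 4 RNA libraries, with the edgeR call under each name. Meis3 and Pbx2 show stage groups that do not overlap and replicates that lie close together, and Meis2 shows 1 high E12.0 library.

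Retinoic acid is a known inducer of Hox genes, and genes of its pathway were transcribed. Of 15 retinoid genes tested, 7 rose and 1 fell, against 22.4% and 23.5% of all genes, and the median log2 change was 0.67. On the log2(TPM + 1) scale 9 rose and 1 fell, against 6821 and 2101 of all 15982 genes. The list's median there was 1.26, against 0.76 for all genes. With E12.0 replicate 2 left out its median was 0.61 against 0.23, and without E13.5 replicate 2 it was 0.42 against 0.02. Each of these 2 fits leaves 1 library in a stage, and fewer of the list were called. Cyp26b1, an enzyme that degrades retinoic acid, rose from 6.46 and 7.89 to 47.7 and 66.0 TMM-scaled CPM (log2 fold change 2.98 ± 0.35, SE, adjusted p = 0.000119, edgeR). Rxrb, a retinoid X receptor, rose from 16.1 and 29.1 to 84.7 and 104 (adjusted p = 0.000736, edgeR). Aldh1a3, an enzyme that makes retinoic acid, fell from 37.3 and 59.3 to 4.33 and 2.97 (-3.73 ± 0.41, SE, adjusted p = 7.95e-05, edgeR). These 3 kept their calls under all 8 alternatives. Aldh1a2, another such enzyme, had 0 CPM in 3 libraries and 0.0586 CPM in E13.5 replicate 1.

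Trithorax proteins keep Hox genes active elsewhere in the embryo, by methylating histone H3 among other ways. Of 13 tested, 0 rose and 5 fell, against 22.4% and 23.5% of all genes. The count that fell was 2 without E13.5 replicate 2 and 3 without either E12.0 library. The median was -0.43 against 0.05 for all genes. On the log2(TPM + 1) scale 1 fell, against 2101 of all 15982 genes, and the median was 0.44 against 0.76. The sign of the median thus changed with the scaling, but the list's median lay below that of all genes on both scales. Wdr5, a core subunit of the histone methyltransferase complexes, fell from 244 and 180 to 65.3 and 73.5 (-1.61 ± 0.26, SE, adjusted p = 0.000732, edgeR) and on the log2(TPM + 1) scale by 0.68 (adjusted p = 0.0494, limma). Kmt2a, a methyltransferase that maintains Hox transcription, stood at 304 and 338, then 203 and 111 (adjusted p = 0.0183, edgeR), and lost its call on that scale and when 3 of the 4 libraries were left out in turn.

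Of the 9 genes upstream of Hox transcription, the caudal genes Cdx1, Cdx2 and Cdx4 never exceeded 0.212 CPM, and Cdx4 had no read. Of the 4 genes tested, 0 rose and 2 fell, against 22.4% and 23.5% of all genes. Without E12.0 replicate 1, 1 fell, and without E13.5 replicate 1, 1 rose and 3 fell. Gmnn, geminin, a licensing inhibitor that also binds Hox regulators, fell from 56.9 and 34.5 to 5.001 and 8.05 TMM-scaled CPM (-2.804 ± 0.41, SE, adjusted p = 0.000409, edgeR). Egr2, upstream of Hoxb2 in the hindbrain, stood at 11.8 and 16.4, then 14.7 and 36.0, and did not pass the test (adjusted p = 0.155, edgeR).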

How the data were processed

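Sequenced RNA, ATAC and CUT&RUN libraries of sorted mouse progenitors were used as the authors deposited them, and groups and replicate numbers came from the sample titles. RNA values are expected counts for each Ensembl gene, with its length and effective length, per the file headers, but which program produced these tables, and whether it used strand, are not given here. Each ATAC or CUT&RUN library has its own deposited peak list, in which every summit has a fold (ratio over local background), a −log10 p and a −log10 q. MACS2, STAR and UMI-tools, with mm10 and GRCm38 as builds, appear in the submitters' processing notes without versions. Intervals listed more than once for several summits were counted once.

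Expected counts were rounded and tested with edgeR 4.0.16 (filterByExpr, TMM scaling, quasi-likelihood test, adjusted p threshold 0.05), with DESeq2 1.42.0 and limma 3.58.1 on log2(TPM + 1) as alternatives. TPM came from expected counts and effective lengths. Coverage, overlap of at least 1 base and CpG content were computed in Python 3.11.15. The fit was checked on simulated data. Gene positions and starts came from RefSeq tables of GRCm38.p6. All members were counted, and of the other lists those called by edgeR could be named. A few genes that enter the counts are not reported here by name or value. The members and lists were chosen with earlier results of these data known. Nothing says that replicates came from separate embryos, so p-values measure only the spread between these libraries. Replicate numbers do not pair the libraries across stages.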

Additional observations from a re-analysis of the deposited data

How the results depend on the processing

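The count of expressed Hox genes stayed at 0 with a limit of 0.5 or 2 TPM, with 10 reads in every library and with each library left out in turn, and so did the count of called Hox genes and of acetylated starts. The count of open members was 20 at E12.0 and 28 at E13.5, and 22 to 23 and 28 to 31 with 1 ATAC library left out. It fell to 8 and 16 when the interval had to cover the start base itself (or the span without margin), and at E12.0 to 11 with 200 bases of overlap. A deposited −log10 q of at least 2 left 12 at E12.0, and one of at least 5 left 5 at E12.0 and 17 at E13.5. An interval in any library sufficed for 34 at E12.0. Gene spans for every member, chosen after seeing the data, gave 25 and 33. Window coverage by ATAC intervals went from 3.62% to 2.48% and 1.34% at E12.0 under the same 2 limits on q, and from 6.06% to 3.68% at E13.5 under the stricter one. H3K27ac coverage at E12.0 was 0.156% with flanks of 50 kb. Leaving out 1 library gave ATAC coverage of 3.12% to 3.98% at E12.0 and 5.67% to 6.71% at E13.5. The cause of these shifts was not tested, apart from fewer intervals under the limits on q.

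Of the cofactor, retinoid, trithorax and upstream genes, 9 rose and 11 fell. On the log2(TPM + 1) scale 12 rose and 5 fell, against 6821 and 2101 of all 15982 genes, whose median was 0.76. With 1 library left out, 5 to 7 rose and 7 to 13 fell. Cbx5 fell by 0.90 (log2) in the edgeR fit but was at 0.40 on the log2(TPM + 1) scale (adjusted p = 0.352, limma), and the cause was not tested. A replicate block left 9 and 11 calls, with 0 Hox genes called, and the correlation of same-numbered libraries was 0.008. Depth limits the RNA result to what 3 reads per library can show.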
